A study of Homo sapiens with 3 samples.

Results

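ERBB2 and 9 genes beside it on 17q12 were followed in 3 poly(A) RNA libraries. All came from NCI-N87, a long-established cell line from a human gastric carcinoma. The 10 genes are MED1, CDK12, PPP1R1B, STARD3, PGAP3, ERBB2, MIEN1, GRB7, IKZF3 and ORMDL3, in order along the chromosome. They were chosen by name and position, with earlier results of these data known. Each has 1 row among the 31907 rows of the expression table. On GRCh38 (GENCODE 29) the stretch runs on chromosome 17 from 39404285, the end of MED1 (ENSG00000125686.11) toward the centromere, to 39927601, the far end of ORMDL3 (ENSG00000172057.9). ERBB2 (ENSG00000141736.13) spans 39687914 to 39730426 and GRB7 (ENSG00000141738.13) 39737927 to 39747291, both on the plus strand. All cells carried Lipofectamine 2000 transfection mixes: cells of 1 library received a scrambled siRNA (genotype label WT), and those of the other 2 received different siRNAs against the forkhead transcription factor FOXP4 (siRNA1 and siRNA2, genotype label Knockdown). The time after transfection and the number of cultures are not stated in the labels used here. The p-values rest only on the spread between the 2 siRNA libraries, pooled in part over genes. That spread can hold reagent, culture and technical differences, and the single control library adds nothing to it. Values are TPM, the share of reads per unit of transcript length, scaled to the same total in each library.

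ERBB2 encodes HER2, a receptor tyrosine kinase of the EGF receptor family that has no known ligand and signals by pairing with EGFR or ERBB3. In a subset of gastric and breast cancers a stretch of 17q12 is copied many times over, and ERBB2, GRB7, STARD3, PGAP3 and MIEN1 are then transcribed at high level together. NCI-N87 is widely used as a line with that amplification. The other listed genes lie at or beyond the usual edges of the amplified stretch. GRB7 is an adaptor that binds the activated receptor, and CDK12 is a kinase of RNA polymerase II.

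The RNA levels went against the label of an amplicon. ERBB2 stood at 89.8 TPM in the scrambled library, at 58.9 TPM for siRNA1 and at 63.9 TPM for siRNA2. Among the 10847 protein-coding genes averaging 1 TPM or more, it ranked 2030, 3183 and 2688 in those libraries, at percentiles 81.3, 70.7 and 75.2. The 10 genes together took 0.0387% of all TPM in the scrambled library, 0.0370% for siRNA1 and 0.0374% for siRNA2. They are therefore described below as ERBB2 and its neighbours. DNA was not measured here, so these values say nothing of copy number, and the identity of the cells was not tested.

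Both ERBB2 and PGAP3, a GPI-anchor remodelling enzyme of the Golgi, have annotated starts at the same spot. On GRCh38 the RefSeq start of ERBB2 taken here, which is not its only annotated start, lies at 39688094 of chromosome 17 on the plus strand. That of PGAP3 lies at 39688057 on the minus strand, 37 bases away, so the windows from 250 bases before to 50 bases after each start share 136 bases (39688008 to 39688143). These windows are shown because the pair faces away from a common stretch, and that of MED1 because it holds both of the motifs marked. RefSeq windows (GRCh38.p14) were matched for 7 of the 10 genes, 9 windows in all, since ORMDL3 has 3. Capitals mark a forkhead core (TGTTTA, read as TAAACA on the other strand) or a CCAAT box (ATTGG on the other strand).
ERBB2 (chr17:39687844-39688143, plus strand): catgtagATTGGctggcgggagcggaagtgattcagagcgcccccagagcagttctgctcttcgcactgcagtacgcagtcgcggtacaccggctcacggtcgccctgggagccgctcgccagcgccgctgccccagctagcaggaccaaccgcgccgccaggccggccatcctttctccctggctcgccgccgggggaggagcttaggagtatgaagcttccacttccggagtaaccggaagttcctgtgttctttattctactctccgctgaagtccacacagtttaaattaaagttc
PGAP3 (chr17:39688008-39688307, minus strand): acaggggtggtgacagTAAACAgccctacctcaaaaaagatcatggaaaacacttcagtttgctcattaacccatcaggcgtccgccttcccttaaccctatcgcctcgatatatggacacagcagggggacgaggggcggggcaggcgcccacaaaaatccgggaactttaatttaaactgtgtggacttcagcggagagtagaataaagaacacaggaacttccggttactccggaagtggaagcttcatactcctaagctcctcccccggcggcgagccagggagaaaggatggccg
MED1 (chr17:39451214-39451513, minus strand): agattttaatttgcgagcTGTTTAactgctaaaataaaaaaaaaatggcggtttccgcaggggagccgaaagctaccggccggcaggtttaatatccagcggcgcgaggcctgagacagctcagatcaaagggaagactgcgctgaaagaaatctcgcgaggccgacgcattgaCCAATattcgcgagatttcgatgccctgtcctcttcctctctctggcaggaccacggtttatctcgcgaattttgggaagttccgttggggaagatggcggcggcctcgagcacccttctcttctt

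All 9 windows were searched on both strands, with no overlap between motifs. TGTTTA was found once in the MED1 window and once in the PGAP3 window, and it occurs in 12.3% of 35116 RefSeq windows of this length. CCAAT was found once each in the ERBB2 and MED1 windows and occurs in 34.6%. The match in the ERBB2 window lies past the PGAP3 start, within the PGAP3 gene, so it is not particular to ERBB2. Likewise the TGTTTA match in the PGAP3 window lies past the ERBB2 start, within the ERBB2 gene, so it is not particular to PGAP3. The AP-2 palindrome GCCNNNGGC occurs in 23.2% and was found once, in the STARD3 window. The CDK12 and MIEN1 windows and the 3 ORMDL3 windows held none of these motifs. A match is a description of letters and not of binding. ERBB2 has further annotated starts, and the sequence before those was not searched, so the matches describe this window only. The table gives 1 value per gene, so the start used by these cells was not resolved.

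In the scrambled library the order of levels was ERBB2, ORMDL3, GRB7, MED1, STARD3, CDK12, MIEN1, PGAP3, IKZF3 and PPP1R1B, as the plot of the 10 genes by library shows. MIEN1 and PGAP3 stood at 18.6 and 18.1 TPM, a gap smaller than the difference between siRNAs for either gene. IKZF3, a lymphoid transcription factor also called Aiolos, was at percentile 8.81 of expressed coding genes. PPP1R1B, which encodes the phosphatase inhibitor DARPP-32, was the 1 gene of the 10 below a mean of 1 TPM. With siRNA1 and with siRNA2 GRB7 was the highest of the 10.

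**Figure D1:**
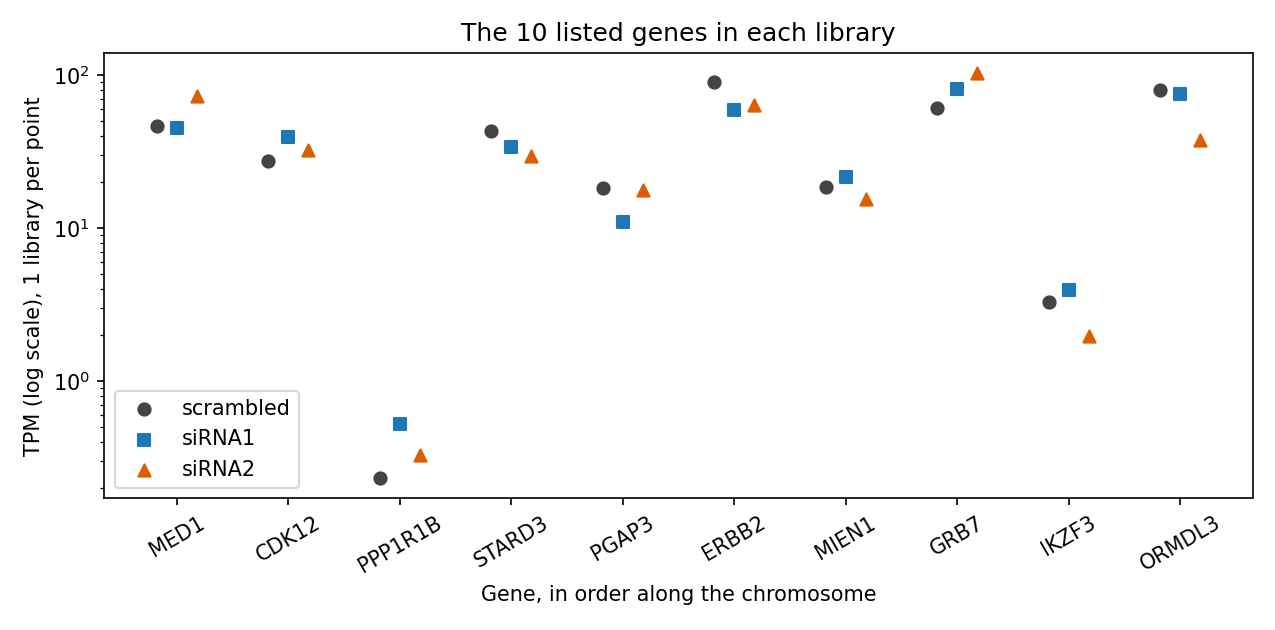
TPM (log scale) of the 10 genes in chromosome order, with 1 point per library (circle scrambled, square siRNA1, triangle siRNA2). ERBB2 is highest with the scrambled siRNA at 89.8 TPM, and GRB7 is highest with siRNA2 at 102.4 TPM.

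The stretch did not rise above the genes around it. Within 1 Mb before MED1 and 1 Mb beyond ORMDL3, 31 protein-coding genes outside the stretch had a mean of at least 1 TPM, and their median in the scrambled library was 50.2 TPM. The 9 listed genes past that limit had a median of 43.0 TPM, and all 10847 expressed coding genes one of 28.7 TPM. The highest genes before MED1 were RPL19, a ribosomal protein gene, at 1586 TPM, PSMB3, a proteasome subunit, at 471 TPM and RPL23, also ribosomal, at 378 TPM. Beyond ORMDL3 they were the focal adhesion gene TNS4 at 1402 TPM, the mitotic topoisomerase TOP2A at 286 TPM and IGFBP4 at 258 TPM. Each of these 6 was above ERBB2 in all 3 libraries.

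**Figure D2:**
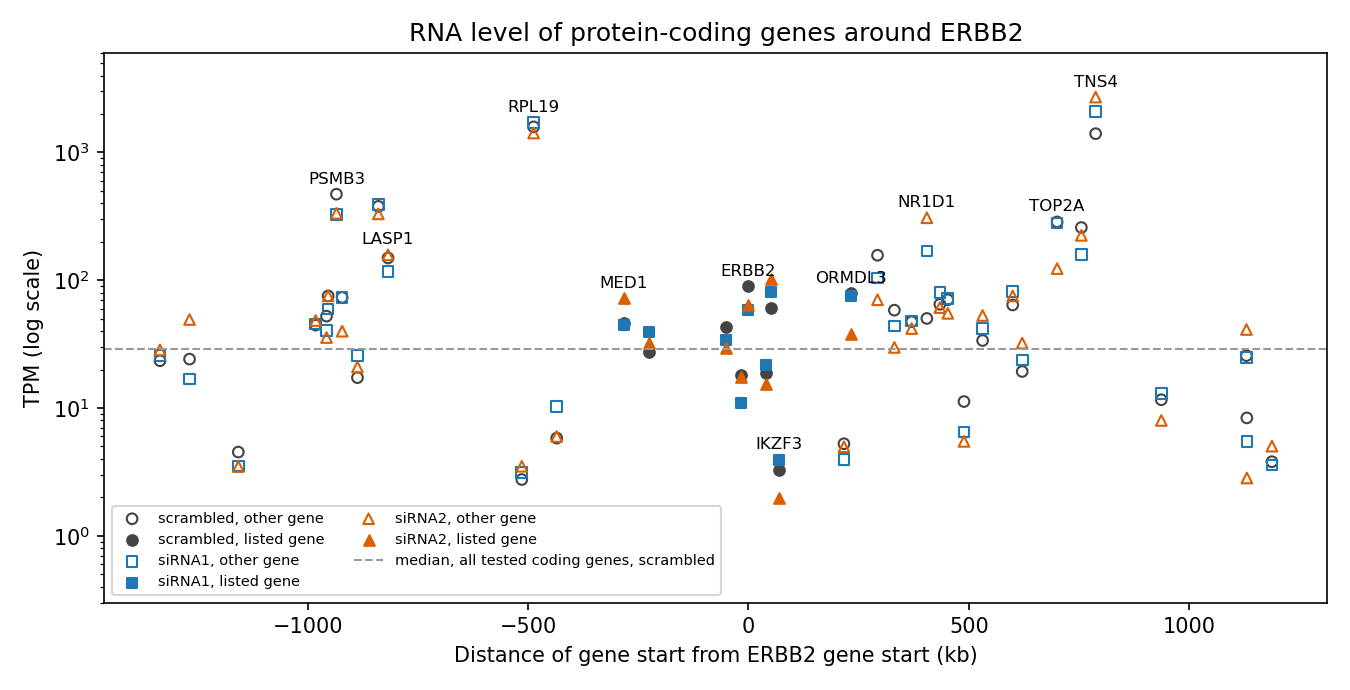
TPM (log scale) of protein-coding genes averaging 1 TPM or more, against the distance of their start from that of ERBB2, in kb. Filled symbols are listed genes, open symbols other genes, and the dashed line is the scrambled-library median of all expressed coding genes (28.7 TPM). The listed genes lie between 1.98 and 102.4 TPM and form no peak above their surroundings.

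The other genes between MED1 and ORMDL3 were low or silent. NEUROD2, a neuronal transcription factor, was listed at 0 in all 3 libraries. TCAP, a muscle titin cap, measured 0.600, 0.620 and 0 TPM in the scrambled, siRNA1 and siRNA2 libraries. PNMT, the enzyme that makes adrenaline, measured 0.292 TPM with the scrambled siRNA and was listed at 0 with both others. ZPBP2, a sperm protein gene, measured 0.555, 0 and 0.0940 TPM, and GSDMB, a gasdermin, 5.25, 3.94 and 4.97 TPM. The estimated reads behind TCAP, PNMT and ZPBP2 were at most 6.0, so differences in them were not detectable at this depth.

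Epithelial markers were well expressed, as the labelled cell type calls for, with 1 low member. EPCAM measured 1136 TPM, KRT8 1733 TPM and KRT19 1343 TPM with the scrambled siRNA, while the adhesion gene CDH1 measured 4.16 TPM. All 6 epithelial markers had a mean of at least 1 TPM. Among lymphocyte markers, the usual company of IKZF3, PTPRC stayed at or under 0.0516 TPM in all 3 libraries and the B cell receptor gene CD79A measured 0.707, 0.584 and 1.29 TPM. IKZF3 itself measured 3.29, 3.95 and 1.98 TPM. Of the 3 neuronal markers SNAP25 and RBFOX3 were listed at 0 throughout, and SYP measured 0.163, 0.0421 and 0.372 TPM. In the muscle and stromal lists 1 gene each averaged over 1 TPM, and both were above CDH1 in the control. DES, a muscle intermediate filament gene, measured 8.19, 6.33 and 3.94 TPM, and COL1A1, a collagen gene, 13.1, 6.42 and 22.3 TPM, while the collagen gene COL1A2 was listed at 0 in all 3 libraries. The part of other cell types in the results was not tested.

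The comparison with FOXP4 knockdown asked which of these transcripts went with loss of the factor. FOXP4 itself stood at 93.9 TPM in the control, 51.6 TPM for siRNA1 and 36.7 TPM for siRNA2. Folds below are on the log2(TPM + 1) scale against the single scrambled library, and both siRNAs share that library. Across genes the folds also followed GC content, more steeply for siRNA1. With that trend removed the FOXP4 folds were -0.20 and -1.02 in place of -0.85 and -1.33. By that calculation the siRNA1 label is only weakly checked by its target. The source of the trend was not tested.

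No listed gene passed the test. Limma with Benjamini-Hochberg adjustment called 0 of 14429 genes at an adjusted p under 0.05 (0% of genes tested), and 428 (2.97%) had an unadjusted p under 0.05. Of the 10 genes 9 were tested, each with an adjusted p of 0.9999, and the smallest unadjusted p in limma among them was 0.262, for GRB7. Over all 10 genes the median log2 fold was 0.08 with siRNA1 and -0.15 with siRNA2, and over all genes tested it was 0.03 and -0.24.

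By size, none of the 10 genes was 2-fold from the scrambled library with both siRNAs. Of all genes tested 363 (2.52%) were past 2-fold on the higher side with both, and 343 (2.38%) on the lower side. That split became 395 and 246 with median-of-ratios rescaling, and 282 and 117 with the GC trend removed. With siRNA1 alone 0 of the 10 genes were past 2-fold, where 5.27% of all genes were on the higher side and 6% on the lower. With siRNA2 alone ORMDL3 was the 1 gene past 2-fold, on the lower side like 13.2% of all genes, and 0 of the 10 were on the higher side, where 6.88% of all genes were. Of the 9 genes tested 4 were lower with both siRNAs, ERBB2, STARD3, PGAP3 and ORMDL3, against 38.1% of all genes tested. CDK12 and GRB7 were higher with both, against 24.5%, and 3 were split, against 37.4%. With the GC trend removed ERBB2 alone of those 9 genes was lower with both, against 34.4% of tested genes with a known GC content. CDK12, MIEN1 and GRB7 were then higher with both, against 33.9%. PPP1R1B, which was too low to be tested, was also higher with both, on few reads.

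ERBB2 was lower by a similar amount with each siRNA. Its 58.9 TPM with siRNA1 and 63.9 TPM with siRNA2 were 65.6% and 71.2% of the scrambled level. On the log2 scale it differed by -0.60 and -0.48, on average by -0.54 ± 0.08 (SD, n = 2 siRNAs), and the limma standard error was 0.45. An estimated 4329, 2742 and 3032 reads lay behind these values. Counting error alone gave 95% intervals of -0.68 to -0.54 and -0.56 to -0.42 for the log2 TPM ratio, and variation between cultures was not measured for the control. These folds lay at percentiles 16.3 and 35.0 of all genes tested. ERBB2 is GC-rich at 57.5%, and with the GC trend removed its folds were -0.23 and -0.18.

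GRB7 was higher where its neighbour ERBB2 was lower. It stood at 60.4 TPM in the control, 80.5 TPM for siRNA1 and 102.4 TPM for siRNA2, so both knockdown values were above the control. Its log2 folds of 0.41 and 0.75 averaged 0.58 ± 0.24 (SD, n = 2 siRNAs). Removing the GC trend raised them to 0.90 and 1.06, since GRB7 has a GC content of 59.9%. The ratio of ERBB2 to GRB7 TPM, which no rescaling of a library can alter, was 1.49 in the control, 0.731 for siRNA1 and 0.624 for siRNA2.

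**Figure D3:**
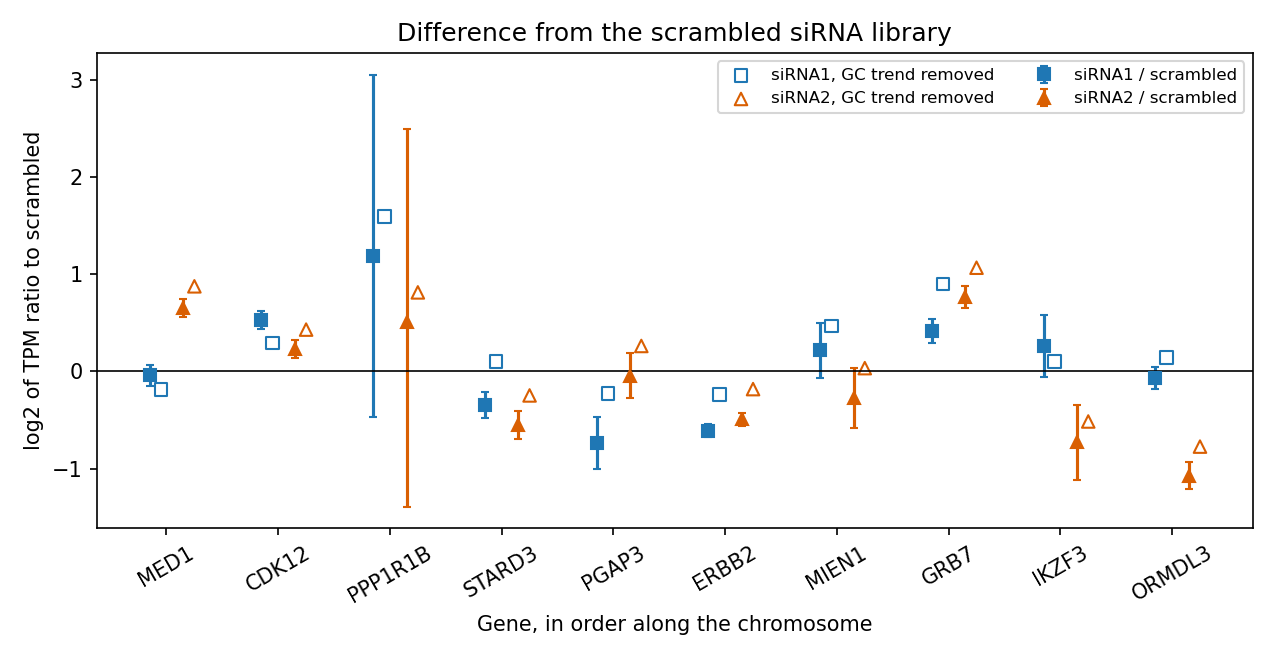
Log2 ratio of TPM to the scrambled library for the 10 genes in chromosome order (square siRNA1, triangle siRNA2). Bars are 95% intervals for counting error only, from estimated reads, and open symbols have the GC trend removed. ERBB2 lies below 0 and GRB7 above 0 with both siRNAs and both ways of calculation.

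Of the genes usually amplified with ERBB2, STARD3 was lower with both siRNAs and PGAP3 chiefly with siRNA1. STARD3, a sterol transfer protein of late endosomes, measured 43.0, 33.8 and 29.4 TPM in the scrambled, siRNA1 and siRNA2 libraries. Its folds of -0.34 and -0.53 became 0.11 and -0.23 with the GC trend removed, so the direction with siRNA1 turned. PGAP3 measured 18.1, 10.9 and 17.6 TPM. Its folds were -0.69 and -0.04, and -0.18 and 0.26 with the GC trend removed.

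MIEN1, a small membrane-anchored protein linked to cell migration, was split. It measured 18.6, 21.6 and 15.4 TPM, with folds of 0.21 and -0.26, and the counting intervals of both log2 TPM ratios held 0. MIEN1 lies tail to tail with ERBB2, and 571 of its 2292 exon bases in GENCODE 29 overlap those of ERBB2 on the opposite strand. PGAP3 lies head to head with ERBB2 and shares 194 of 3669 exon bases with it, also on the opposite strand. No use of strand in counting was stated in the sources used here, so reads from these overlaps could not be assigned with certainty.

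The genes at the MED1 end were level or higher. MED1, a subunit of the Mediator coactivator, measured 46.0, 44.7 and 72.5 TPM, so the siRNA2 library alone stood apart, with a log2 fold of 0.65. CDK12 measured 27.5, 39.6 and 32.3 TPM, with folds of 0.51 and 0.22. Both CDK12 folds kept their direction with the GC trend removed, at 0.28 and 0.42. Its partner cyclin gene CCNK measured 11.9, 12.9 and 15.1 TPM. Of 29 Mediator genes tested, MED1 among them, 8 (27.6%) were higher and 14 (48.3%) lower with both siRNAs, beside 24.5% and 38.1% of all genes tested, and 0 passed limma over all genes. MED13, of the Mediator kinase module, was the 1 past 2-fold on the higher side with both, like 2.52% of all genes, at 46.4, 117.5 and 94.1 TPM.

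At the other end ORMDL3 differed with siRNA2 only. ORMDL3, a membrane protein that restrains serine palmitoyltransferase at the entry to sphingolipid synthesis, measured 79.2, 75.5 and 37.7 TPM. Its log2 folds of -0.07 and -1.05 averaged -0.56 ± 0.70 (SD, n = 2 siRNAs), and the second was -0.75 with siRNA2 once the GC trend was removed. The 2 nearest expressed genes beyond it were also low with siRNA2: PSMD3, a proteasome subunit, measured 156.8, 104.3 and 70.3 TPM, and MED24, of Mediator, 58.3, 43.8 and 29.8 TPM. The next one, the thyroid hormone receptor gene THRA, measured 47.3, 48.0 and 41.8 TPM. Of the 9 sphingolipid entry genes tested, ORMDL3 among them, 4 (44.4%) were lower and 2 (22.2%) higher with both siRNAs, near the 38.1% and 24.5% of all genes tested, and 0 passed limma. SPTSSA, a small subunit of the palmitoyltransferase, measured 99.2, 72.3 and 49.2 TPM.

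IKZF3 and PPP1R1B were the lowest of the 10 genes. IKZF3 measured 3.29, 3.95 and 1.98 TPM, with folds of 0.21 and -0.52, from an estimated 153.8, 178.4 and 91.2 reads. PPP1R1B measured 0.233, 0.530 and 0.332 TPM, from about 5.0, 10.9 and 6.9 estimated reads. The counting interval of the IKZF3 log2 TPM ratio ran from -0.06 to 0.58 for siRNA1 and from -1.12 to -0.35 for siRNA2. Those of both PPP1R1B ratios held 0.

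On the side before MED1 the nearest expressed genes were FBXL20, RPL19 and CACNB1. FBXL20, an F-box gene, measured 5.81, 10.2 and 5.98 TPM, and RPL19 1586, 1706 and 1418 TPM. CACNB1, a calcium channel subunit gene, measured 2.76, 3.13 and 3.50 TPM. Of the 31 genes on either side 10 (32.3%) were lower and 10 (32.3%) higher with both siRNAs, beside 38.1% and 24.5% of all genes tested. The 1 past 2-fold with both, like 2.52% of all genes on the higher side, was NR1D1, a nuclear receptor of the circadian clock, at 50.2, 168.8 and 308.0 TPM. It was named after its values were seen.

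Paralogs elsewhere in the genome were not uniformly below the listed genes. CDK13 measured 28.3, 34.3 and 28.7 TPM beside CDK12 at 27.5, 39.6 and 32.3 TPM. STARD3NL measured 34.2, 45.1 and 32.2 TPM beside STARD3 at 43.0, 33.8 and 29.4 TPM. GRB10 measured 71.1, 63.7 and 85.8 TPM, near GRB7, while GRB14 was lower at 15.5, 14.3 and 9.19 TPM. ORMDL1 measured 25.7, 35.9 and 22.95 TPM and ORMDL2 18.9, 12.4 and 21.9 TPM, both below ORMDL3 in every library. IKZF5 was above IKZF3 throughout at 14.8, 17.5 and 14.8 TPM, and IKZF4 measured 6.43, 5.06 and 5.29 TPM. IKZF2 measured 1.16, 2.56 and 0.388 TPM, and PPP1R1A was listed at 0.

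**Figure D4:**
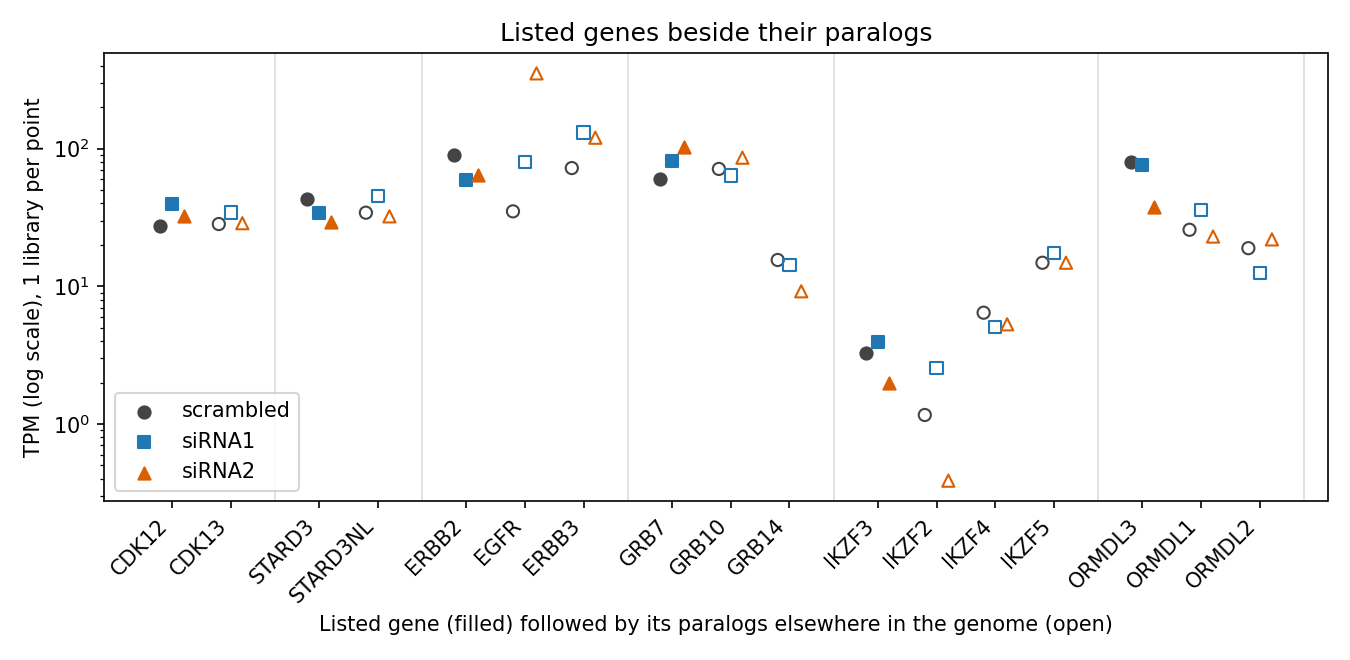
TPM (log scale) of 6 listed genes (filled) and their paralogs (open), with 1 point per library. ERBB2 is above EGFR and ERBB3 with the scrambled siRNA and below both with either FOXP4 siRNA.

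Within the receptor family ERBB2 ranked first of the 3 expressed genes in the control and last with either FOXP4 siRNA. ERBB3, its kinase-poor partner, measured 72.1, 130.8 and 119.8 TPM, and EGFR 35.0, 79.8 and 351.1 TPM, while ERBB4 stayed at or under 0.0674 TPM. The genes that carry or restrain HER2 signals were mostly higher: of 34 tested, 19 were higher and 6 lower with both siRNAs, against 24.5% and 38.1% of all genes tested, and 0 passed limma over all genes. Their median log2 folds were 0.29 and 0.18. The list was chosen with earlier results of these data known, so these counts describe it only, and enrichment was not tested.

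Of the 34 genes of that signalling list 4 were at least 2-fold higher with both siRNAs: EGFR, ERRFI1, GAB1 and PIK3CB. Of all genes tested 2.52% were, but with a list chosen after earlier results were known the shares are description only. ERRFI1, an inducible inhibitor of EGF receptor family kinases, measured 251.1, 1938 and 3268 TPM. GAB1, a docking protein, measured 9.13, 22.8 and 20.7 TPM, and the lipid kinase gene PIK3CB 40.5, 90.2 and 162.5 TPM. The effectors AKT1 (78.5, 48.6 and 51.2 TPM) and MAPK3 (106.8, 69.6 and 66.3 TPM) were lower with both, like 38.1% of all genes tested. Both were named after their values were seen. They are GC-rich at 62.1% and 61.4%, and their folds with the GC trend removed are not given here. ERBB2IP, the older name of ERBIN, which binds HER2, measured 53.7, 98.9 and 105.4 TPM. PIK3R2 was listed at 0 in all 3 libraries.

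The genes most like ERBB2 were those with the smallest distance between their pair of log2 folds and that of ERBB2, among 8311 other coding genes averaging 10 TPM or more. The nearest included TBC1D16, NCAPH2, GPKOW and G6PC3, at distances of 0.0044 to 0.026. TBC1D16, also on chromosome 17, measured 52.2, 34.2 and 37.0 TPM. NCAPH2, a condensin II subunit gene on chromosome 22, measured 48.96, 32.2 and 34.6 TPM. With 3 libraries a likeness rests on 2 folds that share a control.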

How the data were processed

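The authors deposited 1 table of TPM with 1 column per library, and its columns summed to 998273, 998717 and 998406. Per the submitters' processing notes the build was GRCh38. For the quantification tool and its annotation: not given in the sources used here. Per the labels' protocols, libraries were poly(A)-selected and made with a NEBNext kit.

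The 14429 genes averaging 1 TPM or more were compared as log2(TPM + 1), which understates folds of low genes, in limma 3.58.1 (R 4.3.3) with an intensity trend. The 2 siRNAs stood against 1 scrambled library with 1 residual degree of freedom, and the lone library was assumed to vary like the siRNAs. A 2-fold rule of size stood beside it. The fit was also run on simulated data with equal noise for every gene and library. That setting differs from these data, so it does not show how the fit performs on them.

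Positions, exon lengths and GC content came from GENCODE 29 (22180 rows matched by symbol), and promoter windows from RefSeq. Steps in TPM times exon length gave depths of about 17600000, 17600000 and 18600000 reads. In each library at least 92.6% of low values lay within 0.1 of a whole read. For a step fixed in advance 20% would by chance, but the step was fitted to these same values, so the gap is no test. Estimated reads rest on those lengths, and intervals (95%, exact binomial, on the ratio of reads) cover counting error only. The GC trend was a lowess curve (span 0.3) of each siRNA's fold on GC, fitted on genes averaging 10 TPM or more.

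The members and lists were chosen with earlier results of these data known. All 10 members, the other genes between them, paralogs, the nearest 3 and highest 3 flanking genes per side, signalling genes past 2-fold and the 5 genes most like ERBB2 were named by rule. CCNK, MED13, SPTSSA, AKT1, MAPK3, ERBB2IP, PIK3R2 and NR1D1 were added after their values were seen. PDK1, listed in error, was dropped. Muscle, gland and stromal marker lists held 1, 6 and 1 genes averaging 1 TPM or more. Listed symbols without a row were not analysed here. Results for some genes of the marker and likeness lists are not reported here.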

Additional observations from a re-analysis of the deposited data

How the results depend on the processing

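No member passed limma in any fit (adjusted p from 0.707 to 0.999995). In fits with a test 3 member folds turned sign: MIEN1 to 0.10 with median-of-ratios rescaling, which moved the median of all genes from -0.13 to -0.01, and, with the GC trend removed, MIEN1 to 0.25 and PGAP3 to 0.043. With siRNA2 left out 3 more turned, IKZF3 to 0.21, MIEN1 to 0.21 and MED1 to -0.04, and with siRNA1 left out 0 did. PPP1R1B went from 0.21 to 0.65 with a pseudocount of 0.1, 0.053 with 5 and 0.57 with the GC trend removed. The median over the 10 members was -0.09, became 0.15 with the GC trend removed, and was -0.15 to 0.083 with either siRNA left out. Limma called 93 genes at a mean of 10 TPM, 92 among coding genes and 9 without mitochondrial genes. Genes at least 2-fold higher with both siRNAs numbered 158 with a pseudocount of 5, 204 at 10 TPM and 211 among coding genes, and 760 to 993 with 1 siRNA alone. Those lower numbered 521 with a pseudocount of 0.1, 121 with 5, 583 without a filter, 143 at 10 TPM, 177 among coding genes and 117 with the GC trend removed, and 866 to 1902 with 1 siRNA alone. Where fewer genes were tested, smaller counts follow in part, and otherwise the cause was not tested. No paired analysis was possible because the scrambled group has 1 library and the siRNA numbers name reagents. With 1 siRNA left out there are no residual degrees of freedom, so those values have no test. The single control library limits every fold.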
